A study of Mus musculus with 3 samples.

Results

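The 7 mouse genes described here encode the core of the MHC class II antigen presentation pathway: Cd74, H2-Aa, H2-Ab1, H2-Eb1, H2-DMa, H2-DMb1 and Ciita. They were chosen by gene symbol among the 39179 genes of a count table. The rule sets no threshold on measured values, but it was written with earlier results of these data known. All 7 were in the table, and 5 of them passed the filter on low counts and were tested, among 17587 genes tested in all. RNA was measured in white fat of 16-week-old C57BL/6 mice that carried a Flag-FTO transgene and had been fasted overnight. The pull-downs sequenced were 2 libraries of an anti-Flag M2 immunoprecipitation (Flag-IP 1 and Flag-IP 2) and 1 library of an IgG immunoprecipitation (IgG-IP), and both kinds came from transgenic animals. FTO is an RNA demethylase that acts on N6-methyladenosine, and the IgG pull-down measures RNA that comes down without recognition of the tag. No source used here gives the promoter that drives the transgene or the number of animals behind each library. The p-values measure only the spread between the 2 Flag-IP libraries, shared between genes, which may therefore be technical. The 1 IgG-IP library adds no spread of its own.

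MHC class II molecules are heterodimers of an alpha and a beta chain that display peptides from endocytosed proteins to CD4+ T cells. They are assembled in the endoplasmic reticulum on the invariant chain, which blocks the peptide groove until it is cut away in endosomes, where the DM heterodimer exchanges its last fragment for antigen peptides. The coactivator CIITA switches on the genes for these proteins, and in fat they are best known from macrophages, dendritic cells and B cells, although adipocytes can express them too.

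A common sequence context of N6-methyladenosine in messenger RNA is GGACT in the DNA alphabet, and it was looked for in the sense strand of 1 transcript per gene because FTO acts on this mark. The Cd74 transcript (1410 bases) held 0 copies, H2-Aa, H2-Ab1, H2-Eb1 and H2-DMa held 2 each, H2-DMb1 held 5 and Ciita 10. At least 1 copy was found in 91.8% of 14920 tested protein-coding genes, and in 83.2% of the 3034 whose transcript was 1000 to 2000 bases long. A match is a description of the letters and not a methylated site. One coding site is shown for each of 5 genes, from the GENCODE M21 transcripts of GRCm38, 5′ to 3′ along the transcript with GGACT in capitals. The H2-Aa site lies in exon 2 (chr17:34284424-34284450, minus strand), the H2-Ab1 site in exon 3 (chr17:34267494-34267520, plus strand) and the H2-Eb1 site in exon 5 (chr17:34315556-34315579, plus strand). The H2-DMb1 site is in exon 2 (chr17:34155480-34155506, plus strand) and the Ciita site in exon 6 (chr16:10506207-10506233, plus strand).
H2-Aa: ttgttctatgtGGACTtggataagaag
H2-Ab1: attaggaatggGGACTggaccttccag
H2-Eb1: gacagtctGGACTtcagccaacag
H2-DMb1: gggaccccacaGGACTtcacatactgt
Ciita: gagcatgctatGGACTcaaagcacagg
The 2 sites of H2-DMa lay outside its coding sequence and are not shown.

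The libraries held 74176962 to 98227791 counts, but the median tested gene had 24 to 26 counts in each, and the 7 class II genes together had 171, 151 and 73 (first Flag-IP 1, next Flag-IP 2, last IgG-IP, the order of all triplets). Normalized counts are counts scaled to the mean effective library size, where a library's effective size is its total over tested genes times its TMM factor. Among counts from 1 to 19, 69.2%, 68.6% and 70.1% were even numbers, and 3224 genes had 2 counts in Flag-IP 1 while 1198 had 1. The cause was not tested. Each counting interval of a ratio is therefore given for the counts as deposited and for counts divided by 2.

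Setting Flag-IP against IgG-IP asks which RNAs came down more with the Flag antibody than with IgG. No library here is a Flag-IP from mice without the transgene. RNA bound to tagged FTO therefore cannot be told apart from RNA bound to the Flag antibody itself. Of the 7 class II genes, Cd74 was higher in Flag-IP and no other passed: 1 was higher and 0 were lower with a threshold of 0.05 on the Benjamini-Hochberg adjusted p of the quasi-likelihood test in edgeR. Over all genes tested 5.58% were higher and 5.77% were lower. At an unadjusted p under 0.05 the members were 2 higher, Cd74 and H2-Eb1, and 0 lower, where 12.9% of all genes tested were higher and 11.8% lower. DESeq2 gave an adjusted p for 0 of the 5 tested members and so called 0 in either direction, and its unadjusted p was 0.000433 for Cd74 and 0.0997 for H2-Eb1. In bulk samples such as these, fewer cells of a type and less RNA per cell cannot be told apart.

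**Figure D1:**
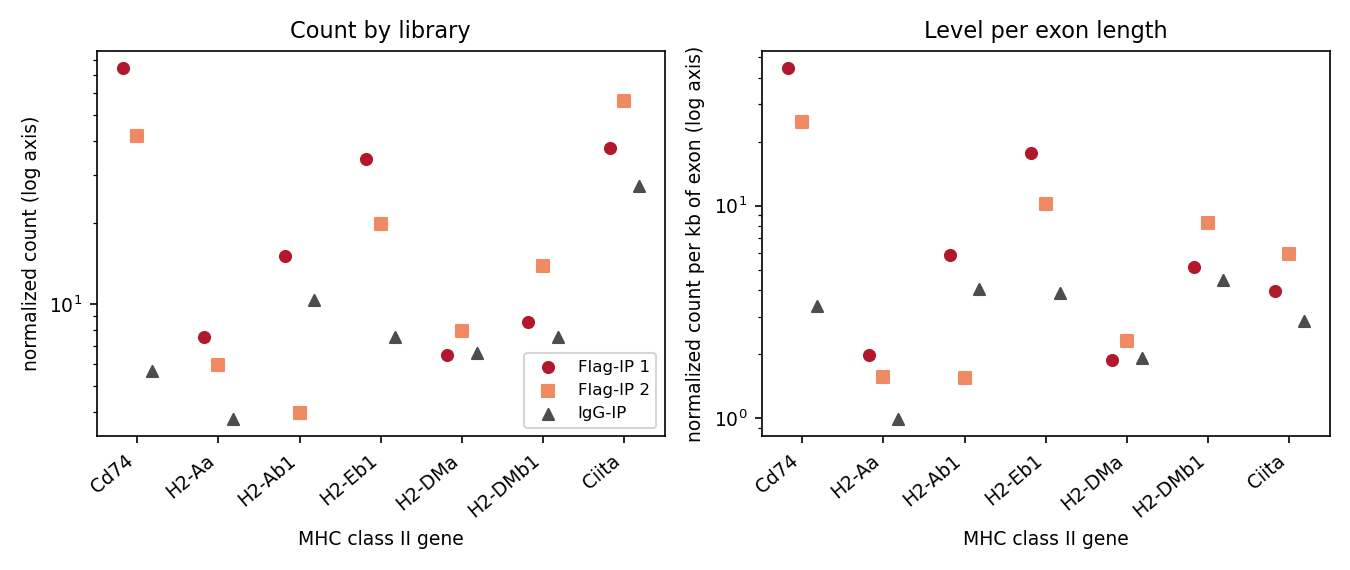
Normalized counts of the 7 MHC class II genes (left) and the same divided by exon length in kb (right), both on log axes. Each point is 1 library (circles Flag-IP 1, squares Flag-IP 2, triangles IgG-IP). Cd74 lies at 74.3 and 41.6 in the Flag-IP libraries and 5.65 in IgG-IP, while the 3 points of H2-DMa lie between 6.46 and 7.92.

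Cd74 encodes the invariant chain, the chaperone that escorts class II dimers to endosomes (GRCm38, chromosome 18, 60803848 to 60812652, plus strand). It had 69, 42 and 6 counts, or 74.3, 41.6 and 5.65 normalized counts. Both Flag-IP libraries lay far above the IgG-IP library, and Flag-IP 1 was 1.79-fold above Flag-IP 2. This was a 10.0-fold difference, 3.32 ± 0.56 (SE) on the log2 scale, and passed the edgeR test (adjusted p = 3.01e-07). The summed Flag-IP counts gave a ratio of 10.1 to IgG-IP, with a 95% Clopper-Pearson interval of 4.51 to 28.2 that covers counting error only, and 3.29 to 50.6 with counts divided by 2. Either Flag-IP library alone gave a ratio above 1 with counts divided by 2, at 13.1 (4.14 to 66.9) for Flag-IP 1 and 7.36 (2.20 to 38.5) for Flag-IP 2. Its 6 counts in IgG-IP are under the filter, so it entered the test through its Flag-IP counts. The one annotated gene that overlaps Cd74 is the microRNA gene Mir5107, with 1, 2 and 0 counts.

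H2-Eb1, the beta chain of the I-E molecule (chromosome 17, 34305867 to 34316674, plus strand), had 32, 20 and 8 counts. On the normalized scale these were 34.5, 19.8 and 7.54, so both Flag-IP libraries lay above IgG-IP. Its log2 fold change of 1.82 ± 0.67 (SE) did not pass, with an edgeR adjusted p = 0.0533. The ratio of summed Flag-IP to IgG-IP counts was 3.56, with a counting interval of 1.68 to 8.68, or 1.24 to 14.0 with counts divided by 2. An antisense gene, Gm20513, covers 20.4% of the span of H2-Eb1 and had 10, 11 and 14 counts, which without a known strand setting cannot be told apart from H2-Eb1 where the genes overlap.

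The I-A molecule is made of H2-Aa (alpha chain; chromosome 17, 34282744 to 34287823, minus strand) and H2-Ab1 (beta chain; 34257689 to 34269419, plus strand). H2-Ab1 had 14, 4 and 11 counts, and its normalized counts of 15.1, 3.96 and 10.4 put the Flag-IP libraries on opposite sides of IgG-IP. The Flag-IP libraries differed 3.81-fold from each other, and the gene did not pass (log2 fold change -0.14 ± 0.95, SE, edgeR adjusted p = 0.952). H2-Aa had 7, 6 and 4 counts, below the filter, and normalized counts of 7.54, 5.94 and 3.77. Its ratio of 1.78 had a counting interval of 0.55 to 7.49, or 0.33 to 17.8 with counts divided by 2, so no difference was detectable at this depth.

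H2-DMa and H2-DMb1 encode the DM heterodimer, the peptide exchange factor (chromosome 17, 34119541 to 34139101 and 34153072 to 34160230, plus strand). H2-DMa had 6, 8 and 7 counts and was not tested. Its normalized counts were 6.46, 7.92 and 6.59, with IgG-IP between the Flag-IP libraries, and a ratio of 1.10 (counting interval 0.41 to 3.21, or 0.27 to 5.69 with counts divided by 2). The neighbour Brd2 covers 15.8% of its span from the other strand and had 27, 24 and 20 counts. H2-DMb1 had 8, 14 and 8 counts and did not pass (log2 fold change 0.57 ± 0.97, SE, edgeR adjusted p = 0.765). Of the 1355 stretches of 50 bases in its transcript, 27.2% also occur in H2-DMb2, its neighbouring paralog with 10, 11 and 6 counts, so the counts of this pair are uncertain. None of the 50-base stretches of the other 6 genes occurred in a transcript of another gene. That search took 1 annotated transcript of each gene in the sense direction, so introns and the opposite strand were not covered.

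Ciita, the coactivator (chromosome 16, 10480059 to 10528418, plus strand), had 35, 57 and 29 counts. The normalized counts were 37.7, 56.4 and 27.3, both Flag-IP libraries above IgG-IP, with Flag-IP 2 the higher one. It did not pass (log2 fold change 0.79 ± 0.42, SE, edgeR adjusted p = 0.235). Dexi, on the other strand, covers 53.5% of the span of Ciita and had 31, 46 and 28 counts, close to those of Ciita in each library. How many reads the 2 genes share is not known, since no source used here gives the counting rules.

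In 5 of the 7 genes both Flag-IP libraries lay above IgG-IP in normalized count, and in 0 both lay below. Among 31043 genes with any count, 35.3% lay above and 32.9% below by the same rule. Many of those genes had only 1 or 2 counts in a library, fewer than any member had, so these shares are not a like comparison. Among the 5 tested members 4 lay above, against 40.5% of the genes tested. Cd74 is among these 4 and entered the test through its Flag-IP counts, so this tally supports nothing on its own. The summed normalized counts of the 7 were 184, 150 and 68.8, and without Cd74 they were 110, 108 and 63.1. The Flag-IP libraries ordered the members differently: Cd74, H2-Eb1, H2-Ab1 and H2-Aa were higher in Flag-IP 1, whereas Ciita, H2-DMb1 and H2-DMa were higher in Flag-IP 2.

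**Figure D2:**
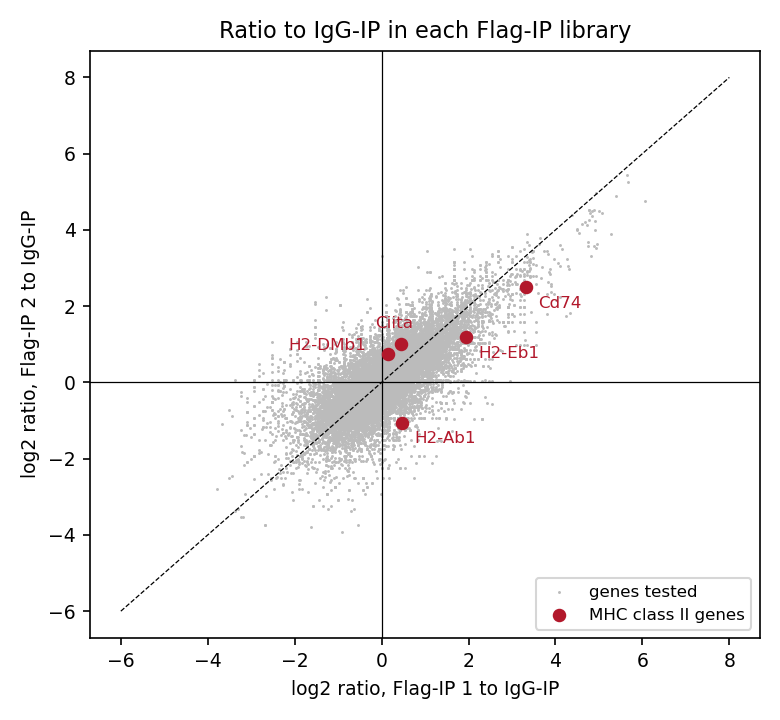
Log2 ratio to IgG-IP of each tested gene in Flag-IP 1 (x axis) and Flag-IP 2 (y axis), from log2 CPM with a prior count of 2, with the 5 tested MHC class II genes in red and equal ratios on the dashed line. Cd74 lies at 3.32 and 2.51, H2-Eb1 at 1.93 and 1.19, and H2-Ab1 at 0.47 and -1.05, on opposite sides of 0.

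Levels of different genes were compared per kb of exon, as normalized counts. In IgG-IP the 7 genes ran from 4.48 for H2-DMb1 through 4.03 for H2-Ab1, 3.88 for H2-Eb1, 3.37 for Cd74, 2.86 for Ciita and 1.91 for H2-DMa to 0.99 for H2-Aa, so Cd74 was 4th there. Over the mean of the Flag-IP libraries the order was Cd74 (34.5), H2-Eb1 (14.0), H2-DMb1 (6.69), Ciita (4.94), H2-Ab1 (3.71), H2-DMa (2.09) and H2-Aa (1.77). Cd74 and H2-Eb1 did not overlap in the Flag-IP libraries, with 24.8 and 44.3 for Cd74 against 10.2 and 17.7 for H2-Eb1. H2-Eb1 in turn lay above the 5.13 and 8.25 of H2-DMb1. From H2-DMb1 downwards every neighbouring pair in this order overlapped between the Flag-IP libraries. Per kb of gene span instead, Cd74 was 5th in IgG-IP and H2-Aa (0.742) was the third, not the last. H2-Aa was also 4th by the Flag-IP mean on that scale, and H2-DMb1 (1.20 and 1.94) overlapped H2-Eb1 (3.19 and 1.83), so the order of the members below Cd74 depends on the length used.

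Counts of all genes followed the length of the gene on the genome more closely than its exon length. Across 14920 tested protein-coding genes, which do not count as replicates, the rank correlation (Spearman's rho) of count with gene span was 0.80, 0.82 and 0.87, and that of count with exon length was 0.48, 0.48 and 0.47. The median such gene had 0.845, 0.856 and 0.841 normalized counts per kb of span. Cd74, which spans 8.80 kb, had 8.44, 4.72 and 0.642 on that scale, and H2-Eb1 had 3.19, 1.83 and 0.697. The IgG-IP values of both genes lay below that median and all their Flag-IP values above it. Among 20442 protein-coding genes with any count, 98.7% and 97.9% had a lower value per kb of span than Cd74 in the Flag-IP libraries, and 38.2% in IgG-IP. Ciita spans 48.4 kb and had 0.779, 1.17 and 0.565 normalized counts per kb of span, the first and last below the median and the other above it.

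**Figure D3:**
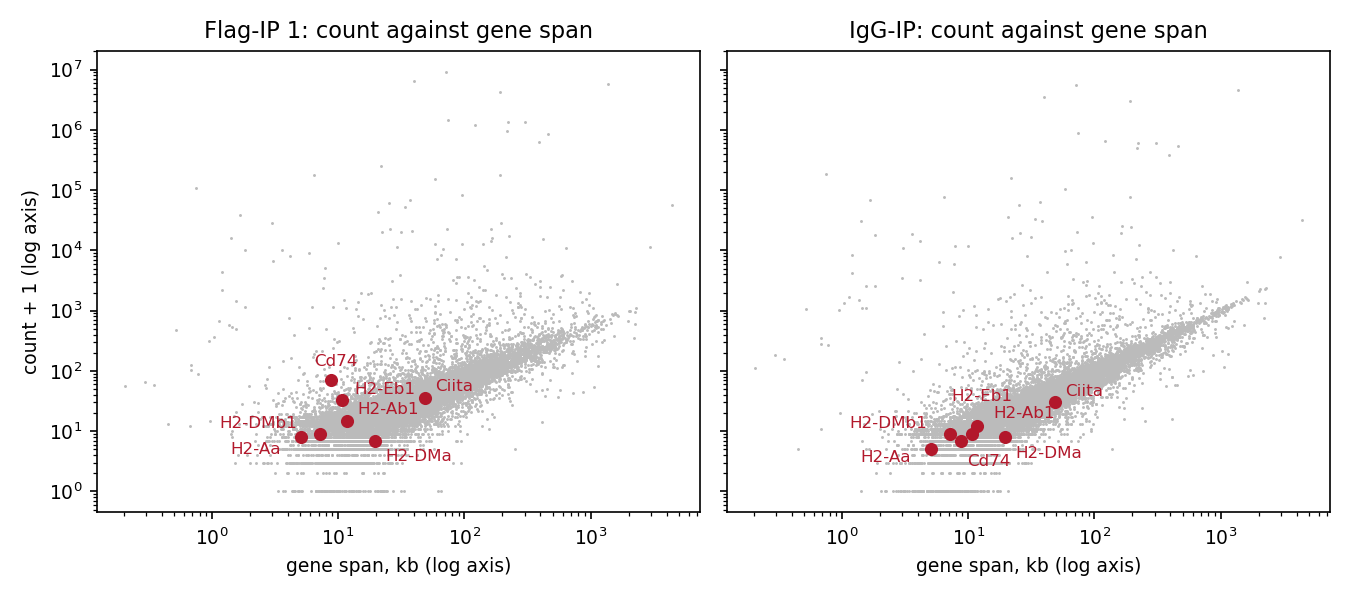
Count plus 1 (log axis) against gene span in kb (log axis) for tested protein-coding genes in Flag-IP 1 (left) and IgG-IP (right), with the 7 MHC class II genes in red. Cd74, with 69 counts, lies above the band of other genes of its span in Flag-IP 1, and lies within the band in IgG-IP, with 6 counts.

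Transcript GC content moved with the comparison. The 7 genes had a GC content between 50.5% (H2-Aa) and 57.4% (H2-Ab1), with a median of 55.5%, against a median of 49.5% over all genes tested. A lowess trend of log2 fold change on GC over 10166 genes averaging 20 counts or more stood at 0.59 at the GC of Cd74 (56.1%), at 0.49 for H2-Eb1 and at 0.54 for Ciita. With that trend removed Cd74 was still higher, with a log2 fold change of 2.74 ± 0.57 (SE) and an edgeR adjusted p = 0.000117. H2-Eb1 then had 1.34 ± 0.67 (SE), Ciita 0.24 ± 0.42 and H2-Ab1 -0.81 ± 0.95, and none of these passed.

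**Figure D4:**
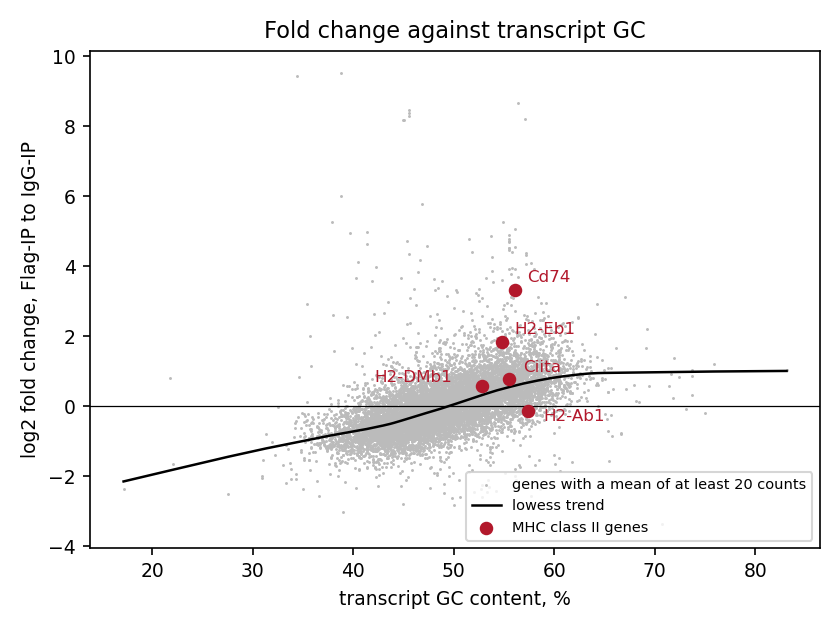
Log2 fold change of Flag-IP to IgG-IP against transcript GC content in percent, for genes averaging 20 counts or more (grey), their lowess trend (line) and the 5 tested MHC class II genes (red). Cd74 (3.32) and H2-Eb1 (1.82) lie above the trend, and H2-Ab1 (-0.14) below it.

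The 5 members with an H2 symbol lie within 197 kb of chromosome 17 (34119541 to 34316674), the class II region, which also holds class I processing genes. Of the 15 genes of the table inside it 8 were tested and 0 were higher or lower by edgeR, and their counts summed to 162, 145 and 90. The other class II genes of the MHC were weakly counted: H2-Oa had 2, 0 and 8, H2-Ob 5, 9 and 2, H2-Eb2 6, 16 and 2, and the pseudogene H2-Ea-ps 4, 2 and 0. Only H2-Eb2 and H2-DMb2 of them were tested, and 0 passed by edgeR, with 0 at an unadjusted p under 0.05. DESeq2 gave an adjusted p for 0 of them.

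Among 13 genes that switch on class II transcription, 12 were tested, 0 were higher and 1 was lower. The median log2 fold change was 0.36 against 0.03 over all genes tested. Irf1 (3, 19 and 2 counts) entered the test through Flag-IP 2 only. Rfxap (6, 5 and 16) and Rfx5 (2, 7 and 8) entered through IgG-IP only, so this median supports nothing on its own. The lower gene was Jak2, a kinase of the interferon gamma receptor, with 23, 37 and 77 counts (log2 fold change -1.23 ± 0.37, SE, edgeR adjusted p = 0.0139), a call lost with the GC trend removed (adjusted p = 0.293). By DESeq2 none had an adjusted p, and at an unadjusted edgeR p under 0.05 there were 1 higher and 1 lower. Jak1, the partner kinase of Jak2 at that receptor, had 119, 121 and 105 counts and did not pass. The receptor chains Ifngr1 (30, 12 and 16) and Ifngr2 (17, 19 and 10) and the promoter-binding factors Nfya (18, 26 and 14), Nfyb (10, 14 and 10), Nfyc (69, 57 and 69) and Creb1 (64, 75 and 68) did not pass.

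Of 12 genes of class II antigen processing and turnover 11 were tested and 0 passed by edgeR, with 1 higher and 1 lower at an unadjusted p under 0.05. DESeq2 gave an adjusted p for only 1 of the 11 and called 0. The median log2 fold change of the list was 0.10. March1, a ubiquitin ligase that removes class II molecules from the cell surface, had the most counts at 541, 742 and 1026, all Flag-IP values below IgG-IP (log2 fold change -0.55 ± 0.22, SE, edgeR adjusted p = 0.0754). Its direction turned with the GC trend removed (0.03). The related ligase gene March8 had 86, 106 and 104.

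Class I presentation, which displays peptides from the cytosol to CD8+ T cells, had 3 genes higher and 0 lower of 13 tested among 18 listed. Over all genes tested 5.58% were higher and 5.77% lower. The median log2 fold change of the list was 1.16. At an unadjusted p under 0.05 there were 3 higher and 0 lower by edgeR, and no gene had an adjusted p by DESeq2. H2-K1, a class I heavy chain, had 34, 55 and 3 counts and a ratio of summed Flag-IP to IgG-IP counts of 16.2 (counting interval 5.38 to 80.3, or 3.59 to 232 with counts divided by 2, edgeR adjusted p = 8.79e-07). Calr, the calreticulin chaperone, had 29, 18 and 2, a ratio of 12.9 (3.37 to 109, or 2.09 to 530 with counts divided by 2, edgeR adjusted p = 0.00285). Like Cd74, both had IgG-IP counts under the filter and entered the test through their Flag-IP counts. So did H2-Q4 (14, 12 and 3), Tap1 (20, 13 and 6) and Psmb10 (6, 16 and 2), while B2m entered through its IgG-IP count. The list's count of called genes and its median therefore support nothing on their own. H2-D1, another heavy chain, had 34, 34 and 11 (log2 fold change 1.75 ± 0.57, SE, edgeR adjusted p = 0.0262), a call that was lost with the GC trend removed (log2 fold change 1.45, adjusted p = 0.164), with library totals as scale (1.23 and 0.145), with no filter (1.69 and 0.0526) and with halved counts (1.61 and 0.0505). Class I heavy chain genes are close copies, and 8.79% of the 50-base stretches of H2-K1 and 14.3% of those of H2-D1 are found in other genes, which leaves the values of each uncertain. B2m, the light chain that pairs with them, had 4, 4 and 13 counts and did not pass. Nlrc5, the class I counterpart of Ciita, had 59, 75 and 49, and the chaperone gene Canx 67, 45 and 50. The difference between class I and class II genes was not tested.

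Markers of the cells that carry class II molecules were set beside these values. The 12 macrophage markers in the table summed to 542, 482 and 722 normalized counts, with 0 of 8 tested higher, 1 lower and a median log2 fold change of -0.17. The lower one was Ptprc, the pan-leukocyte phosphatase CD45, with 168, 211 and 365 counts (-0.82 ± 0.22, SE, edgeR adjusted p = 0.00516), and the call was lost with the GC trend removed (-0.16, adjusted p = 0.855) and by DESeq2 (-0.83, adjusted p = 0.129). Mrc1 had 85, 70 and 123, and Lyz2 and Cd14 had 0, 0 and 4 each. The 9 dendritic cell markers summed to 196, 193 and 210 (Flt3 42, 66 and 47, Zbtb46 83, 52 and 99), with 0 of 7 tested called. The 7 B cell markers summed to 297, 339 and 262 (Pax5 188, 207 and 173, Blk 21, 51 and 35), with 0 of 6 called, and the 6 T cell markers to 89.4, 93.1 and 71.6 (Cd4 22, 21 and 22, Lck 26, 25 and 20), with 0 of 6 called. At an unadjusted edgeR p under 0.05 these 3 lists had 0, 1 and 0 genes higher and 0 lower. DESeq2 gave an adjusted p for only 0, 1 and 0 of their genes, and called 0. The lists of macrophage and dendritic cell markers had a lower sum in both Flag-IP libraries than in IgG-IP, and those of B and T cells a higher one. Without the marker of most counts in each list, the sums of the B cell markers (without Pax5) were 94.8, 134 and 98.9 and those of the dendritic cell markers (without Zbtb46) 107, 142 and 117, so in both lists the Flag-IP libraries then lay on opposite sides of IgG-IP. The macrophage sums without Ptprc (361, 273 and 378) and the T cell sums without Lck (61.4, 68.3 and 52.8) kept their direction. Their part in the values of Cd74 was not tested.

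The 10 adipocyte markers summed to 419, 366 and 365 normalized counts, and none was at 0 in any library. Plin1, the lipid droplet coat protein, was the 1 gene higher of 9 tested, with 34, 59 and 12 counts (log2 fold change 2.06 ± 0.51, SE, edgeR adjusted p = 0.00185, and 0.121 with the GC trend removed). Cidec (117, 93 and 152) and Pparg (68, 117 and 148) did not pass, although Cidec was called lower with the GC trend removed (-1.01, adjusted p = 0.00489) and, as Pparg was, with library totals as scale. The median log2 fold change of the list was 1.06. Like Cd74, Adipoq and Retn (11, 6 and 3 counts) had IgG-IP counts under the filter. They entered the test through their Flag-IP counts, so this median supports nothing on its own. At an unadjusted edgeR p under 0.05, 4 were higher (Plin1, Adipoq, Lep and Lipe, the last 3 named after their values were seen) and 1, Pparg, was lower. Over all genes tested 12.9% were higher and 11.8% lower by that rule. DESeq2 gave no adjusted p for the list. Adipoq had 18, 14 and 3 counts, Lep 37, 20 and 12, and Lipe 52, 35 and 23. Each was higher in Flag-IP 1 than in Flag-IP 2 and lowest in IgG-IP. Other markers of the list went another way: in normalized counts Plin1 was highest in Flag-IP 2, and Cidec and Pparg were highest in IgG-IP. The part of adipocyte RNA in the values of Cd74 was not tested.

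By the rule for likeness, the genes nearest to Ciita, the member with the most counts, were Aldh3a2 (28, 46 and 23), Tpm4 (24, 40 and 20), Begain (32, 53 and 27), Gm13589 (20, 32 and 16) and Upf1 (24, 41 and 20). Likeness was the Euclidean distance between pairs of log2 ratios to IgG-IP over the 3 libraries, among 10248 other genes averaging 20 counts or more, and was at most 0.041 for these 5. For Cd74 the nearest were Rmrp (35493, 23240 and 4259), Ccdc107 (28612, 19205 and 3426) and Gm15940 (47, 30 and 4), at distances of 0.067, 0.080 and 0.14. The log2 ratios used here carry a prior count of 2. It lowers the ratios of Cd74, with 6 IgG-IP counts, far more than those of Rmrp and Ccdc107. Without it the ratios of Cd74 were 13.1 and 7.36, so its nearness to these highly counted genes depends on the prior count. Few genes lay near Cd74, 3 within a distance of 0.2, against 132 near Ciita. Cd74 was chosen here after its values were seen and lies far from the median log2 fold change of 0.03. The contrast therefore describes only where the 2 genes lie.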

How the data were processed

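The values are counts per Ensembl gene, whole numbers with no normalization in the deposited table, with 1 column per library matched by the sample numbers in the labels. CASAVA 1.7, Bowtie 0.12.2 and the build mm8 are named in the submitters' processing notes. No source used here names the counting program, the annotation it read or how it treated strand. Positions, spans, exon lengths and transcripts are from GENCODE M21 (GRCm38), matched by Ensembl identifier for 37607 of 39179 genes, and none are in mm8. The deposited lipid list was not used here.

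Genes were kept by filterByExpr (minimum count 10), scaled by TMM (factors 0.840, 0.936 and 1.27) and tested with edgeR 4.0.16 (glmQLFit and glmQLFTest, R 4.3.3) with Benjamini-Hochberg adjustment over all genes tested. The model had 1 residual degree of freedom and a common dispersion of 0.0359. The number of genes with finite prior degrees of freedom was 0, so the spread is shared between genes and IgG-IP adds none. The SE is the size of the log2 fold change divided by the square root of F. The test was run on simulated data first. Alternatives were other scalings, filters and prior counts, DESeq2 1.42.0, a GC trend removed as an offset (lowess), and each Flag-IP library left out. Scaling to genes under 10000 counts, halved counts and marker sums without the marker of most counts were added after seeing the data.

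The members and the 9 other gene lists were chosen with earlier results of these data known. Named were all members, list genes past the threshold (up to 4 a list), the 2 with most counts, transcription genes averaging 10 counts or more, and the genes nearest to the most counted member. The other class II genes, B2m, H2-Q4, Tap1, Psmb10, Retn, Lyz2, Cd14, overlapping genes and those nearest to Cd74 were named after their values were seen. So were Irf1, Rfxap and Rfx5. A gene that this rule takes is not reported here.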

Additional observations from a re-analysis of the deposited data

How the results depend on the processing

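The increase of Cd74 kept its direction and its call in all 8 alternative edgeR fits that gave an adjusted p. Its log2 fold changes ran from 2.74 to 3.32 and its edgeR adjusted p-values from 3.01e-07 to 0.000142. The fits with prior counts of 0.5 and 2 alter only the fold change and not the test. Their adjusted p of 3.01e-07 is that of the main fit, so these fits could not change the call. Without Flag-IP 1 the value of Cd74 was 2.85 and without Flag-IP 2 it was 3.69, with no test. H2-Eb1 stayed above 0 and uncalled (1.30 to 2.18, adjusted p = 0.0533 to 0.347), as did Ciita (0.24 to 1.04) and H2-DMb1 (0.074 to 0.87), while H2-Ab1 ran from -1.36 without Flag-IP 1 to 0.54 without Flag-IP 2. With no filter H2-Aa had 0.76 ± 1.22 (SE) and H2-DMa 0.070 ± 1.01, with adjusted p = 0.796 and 0.986. Members could not be counted under a mean of at least 50 counts, where none is left, or by DESeq2, which gave no adjusted p. Leaving out a Flag-IP library leaves no residual degree of freedom, so counts of called genes have no value there. IgG-IP counts of 4 to 29 limit the precision of every member.

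Over all genes, 981 higher and 1015 lower became 342 and 3008 with library totals, whose median shift of the log2 fold change was -0.52, 418 and 313 with the GC trend removed, and 131 and 145 by DESeq2, which gave no adjusted p for 15684 genes. Among other named genes none past the threshold reversed. Uncalled values turned to the other side of 0 with library totals for Blk (-0.34), Canx (-0.23), Cd4 (-0.42), Creb1 (-0.35), Flt3 (-0.18), Jak1 (-0.19), Lck (-0.037), March8 (-0.50), Nfyb (-0.12), Nfyc (-0.52) and Pax5 (-0.20). With the GC trend removed the same happened for Blk (-0.35), Cd4 (-0.11), Jak1 (-0.013), Lck (-0.040), March1 (0.032), March8 (-0.13), Mrc1 (0.22), Nfyc (-0.40) and Pax5 (-0.33). It also did for March8 with no filter (-0.043) and with scaling to genes under 10000 counts (-0.025), and for Nfyc in those settings (-0.051 and -0.033), with RLE (-0.0029) and with halved counts (-0.0020). Leaving out Flag-IP 1 turned Ifngr1 (-0.34), Canx (-0.080) and Nfyc (-0.20), and leaving out Flag-IP 2 turned Blk (-0.54) and March8 (-0.079), with no test. Calls were gained too: with library totals Cidec (-0.92, adjusted p = 0.0160), March1 (-1.06, 4.29e-05), Mrc1 (-1.05, 0.00978), Pparg (-1.06, 0.00533) and Zbtb46 (-0.94, 0.0360) were called lower, as was March1 with scaling to genes under 10000 counts (-0.59, 0.0464) and Cidec with the GC trend removed (-1.01, 0.00489). No paired analysis was possible because the groups share only replicate number 1.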
